A study of Mus musculus with 24 samples.

Results

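The transcriptome of the visual cortex was compared between mice lacking the microRNAs miR-132 and miR-212 and their wild-type littermates at postnatal day (P) 28. Of the 24 libraries in the series, 12 held mRNA, and the 8 P28 mRNA libraries were used, 4 from null mice (P28-KO) and 4 from wild-type mice (P28-wt). All mice were normally reared C57BL6J animals of both sexes. The null mice carried a ubiquitous deletion of both microRNA genes, so every cell type of the sampled cortex lacked them, in development as well as at P28. An SD given with expression values is the spread between the 4 libraries of a group. An SE given with a log2 fold change is that of the genotype difference in the fit, with the variance moderated across genes. The study counts mice as replicates, while the column header of each library carries a pair of serial numbers, and the labels do not tell whether any library pooled animals. Expression was given as RPKM, which divides the reads of a gene by the length of its exons and by the depth of the library. Of the 23881 genes in the table, 13816 averaged 0.5 RPKM or more across these 8 libraries and were tested.

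MicroRNAs are short RNAs that pair through their seed, bases 2 to 8 of the mature strand, with sites that lie mostly in the 3′ untranslated region (UTR) of mRNAs, and lower the stability or the translation of those mRNAs. The Mir132 and Mir212 genes lie next to each other and are transcribed together. Their transcription is induced by the activity-dependent factor CREB, and in neurons they are known for effects on dendrites, spines and experience-dependent plasticity of the visual cortex. Loss of a microRNA is therefore read, at the mRNA level, as the difference in genes that carry its sites.

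The mature sequences are shown because every site search below rests on their seeds, written in capitals (RefSeq, GRCm38.p6, chromosome 11, plus strand, 5′ to 3′).
miR-132-3p, chr11:75173723-75173744: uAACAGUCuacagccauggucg
miR-212-3p, chr11:75173443-75173464: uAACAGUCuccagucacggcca
miR-212-5p, chr11:75173403-75173425: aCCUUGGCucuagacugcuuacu
miR-132-5p, chr11:75173686-75173707: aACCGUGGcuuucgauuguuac
The 3p strands of both genes share 1 seed and so 1 set of sites (GACTGTT on the mRNA), whereas each 5p strand has a seed of its own.

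The libraries of 1 genotype differed in depth and composition. The low RPKM values implied a depth of 18.2 to 44.3 M counted reads per library. The sum of RPKM over all genes ranged from 256643 to 293066. P28-wt replicate 2 stood apart on the first principal component, which carried 34.3% of the variance, with a score of 39.4 against scores between -21.2 and 14.2 in the other 7 libraries. It was low in several long transcripts, for instance Erbb4 at 0.355 RPKM against 1.48 to 4.90 in the other 7 libraries. Both Xist and the Y-linked gene Ddx3y exceeded 1 RPKM in 3 libraries (P28-KO replicates 1 and 3 and P28-wt replicate 1). There Xist was at 21.6, 28.6 and 20.4 RPKM and Ddx3y at 6.72, 4.20 and 4.76 RPKM. Whether these 3 libraries pooled female and male mice was not tested. Of markers of other tissues, 9 of 11 for striatum, 8 of 9 for thalamus, 6 of 9 for hippocampus, 3 of 8 for blood cells, 2 of 9 for choroid plexus and 1 of 14 for lymphocytes reached the expression minimum. The summed RPKM was 86.3 to 107 in P28-KO and 105 to 113 in P28-wt for the striatal list, and 72.5 to 96.6 and 62.1 to 76.0 for the hippocampal list. Ttr of the choroid plexus was between 0.0250 and 1.97 RPKM.

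The deleted genes were absent from the P28-KO libraries. Mir212 was listed at 0 in all 4 P28-KO libraries and at 17.5, 19.1, 24.7 and 13.96 RPKM in the P28-wt libraries. Mir132 was likewise at 0 in all 4 P28-KO libraries and at 14.4, 9.74, 13.1 and 11.2 RPKM in P28-wt. These libraries were made from mRNA, so the values count reads over the hairpins and not the mature microRNAs. The steps between low RPKM values imply 15.3 to 38.2 reads for Mir132 and 29.0 to 99.5 reads for Mir212 in the P28-wt libraries. Both genes fell in P28-KO at an adjusted p of 2.43e-09 (limma, Benjamini-Hochberg over all genes tested), and the exact two-sided permutation test gave p = 0.02857 for each, the smallest that 70 assignments of the libraries allow. At P10, in the 4 wild-type libraries of that age, the means were 0.794 and 0.610 RPKM, as the plot of both entries by group shows.

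**Figure D1:**
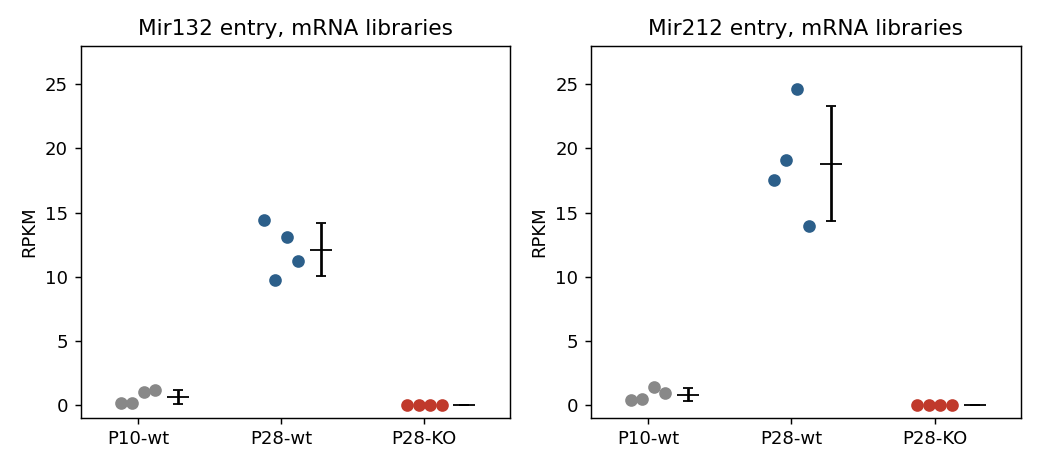
RPKM (y axis) of the Mir132 and Mir212 entries in the 12 mRNA libraries by group (x axis). Points are libraries and the bar beside each group is its mean with the SD (n = 4). All 4 P28-KO libraries are at 0, and the P28-wt libraries lie between 9.74 and 14.4 RPKM for Mir132 and between 13.96 and 24.7 RPKM for Mir212.

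Beyond the deleted locus, differences between the genotypes were small, and no other gene passed correction for multiple tests. No gene was higher and 2 genes (Mir132 and Mir212) were lower in P28-KO at an adjusted p under 0.05, which is 0.0145% of the genes tested. The smallest adjusted p of any other gene was 0.274. At an unadjusted p under 0.05, 1698 genes (12.3%) differed. Of these, 575 (4.16%) were higher and 1123 (8.13%) lower in P28-KO. Median-ratio scaling of the libraries gave 806 higher and 782 lower genes, so the share of higher genes among them went from 33.9% to 50.8%, and quantile normalization gave 689 and 818 (45.7%). In 762 genes (5.52%) the 4 P28-KO libraries did not overlap with the 4 P28-wt libraries, 257 (1.86%) with higher and 505 (3.66%) with lower values. The log2 fold change, always P28-KO minus P28-wt on the log2(RPKM + 0.1) scale, had a median of -0.03 over all genes, and the median of its absolute value was 0.12. It exceeded 1 in either direction in 54 genes. Where genes are called higher or lower in what follows, this is at an unadjusted p under 0.05, and none of them passed the adjusted threshold. These counts moved with single libraries. Higher and lower genes numbered 306 and 583 without P28-KO replicate 3, 363 and 579 without P28-KO replicate 4, 298 and 556 without P28-wt replicate 3, 890 and 1987 without P28-KO replicate 2, and 956 and 1534 without P28-wt replicate 4.

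The genotype difference was related to the base composition and length of the transcripts. The correlation across genes between the log2 fold change and GC content was -0.33 over 13753 genes with a reference transcript, and that with log2 transcript length was 0.23. Genes are not independent replicates and share libraries, so these values describe the tables only. In the quintile of genes with the lowest GC content, 254 genes were higher and 22 lower in P28-KO at an unadjusted p under 0.05. In the quintile with the highest GC content, 23 were higher and 502 lower. The longest quintile of transcripts held 260 higher and 48 lower genes, and the shortest quintile 60 and 399. The relation varied between libraries of 1 genotype. The correlation of a library's deviation from the gene means with GC content was -0.24, 0.35, -0.33 and -0.48 in the P28-KO libraries and 0.20, -0.02, 0.50 and 0.01 in the P28-wt libraries. As an alternative, a trend on GC content and length was removed from each library by loess. It left 762 higher and 739 lower genes at an unadjusted p under 0.05, spread about evenly over the quintiles of GC content and length. The shares also varied with expression. The quintile of highest mean RPKM held 64 higher (2.32%) and 449 lower genes (16.3%), and the lowest 133 (4.81%) and 90 (3.26%). After removal of the trend these counts were 131 and 247, and 168 and 54. The shares of all genes given below are not matched for expression.

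**Figure D2:**
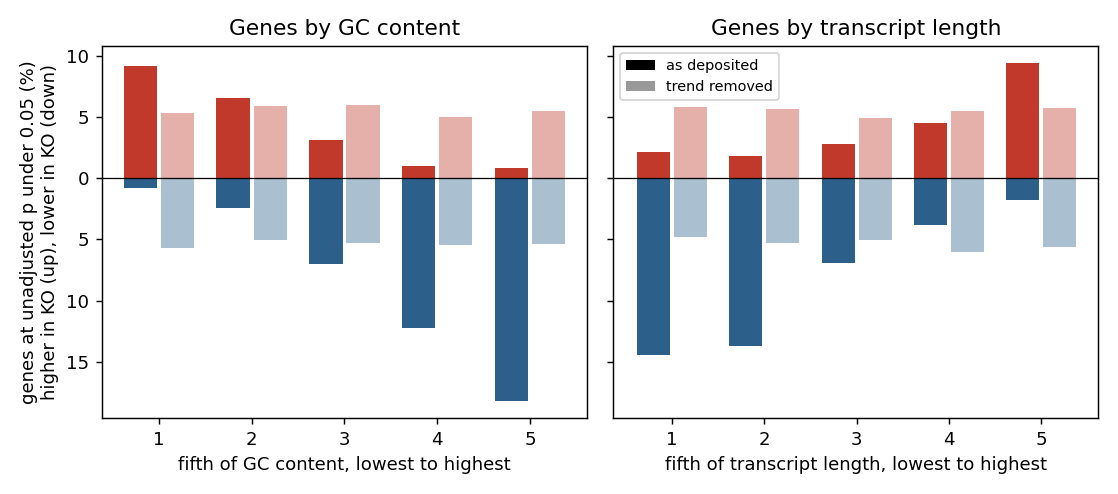
Share of genes (y axis, %) higher in P28-KO (red, above 0) or lower in P28-KO (blue, below 0) at an unadjusted p under 0.05, by quintile of GC content (left) and of transcript length (right) on the x axis. Dark bars are the values as deposited and pale bars those after removal of the trend. As deposited, 9.23% of the lowest GC quintile was higher and 18.2% of the highest GC quintile was lower.

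Apart from Mir132 and Mir212, the genes named first are those with the smallest p among genes of mean RPKM of at least 1 whose groups did not overlap, 10 in each direction. They were picked by these values, so the values are a description. Among 223 such higher genes, Fzd4, a receptor for Wnt ligands and norrin that acts in vessels of the retina and brain, had 1.49, 1.59, 1.56 and 1.40 RPKM in the P28-KO libraries and 0.970, 0.664, 0.914 and 0.759 RPKM in the P28-wt libraries. Its lowest null value lay above its highest wild-type value, with a log2 fold change of 0.81 ± 0.16 (SE) and an adjusted p of 0.379 (limma). Ptgs2, the inducible cyclooxygenase that excitatory neurons express in response to activity, was at 8.65, 5.80, 6.86 and 5.29 RPKM in P28-KO and 3.83, 4.23, 3.99 and 3.50 RPKM in P28-wt (log2 fold change 0.74 ± 0.14). These 2 genes had no library of 1 genotype within the range of the other. Srrm2, a large scaffold protein of nuclear speckles and the spliceosome, was at 56.2, 59.4, 62.7 and 60.1 against 46.1, 42.4, 47.6 and 50.3 RPKM (log2 fold change 0.36 ± 0.07). F3, which encodes tissue factor, the starter of blood coagulation and in brain a product of astrocytes, was at 17.6, 18.3, 16.1 and 16.4 against 11.6, 13.5, 14.01 and 13.9 RPKM. Tada2b, an adaptor of the SAGA histone acetyltransferase complex, was at 7.79, 8.30, 8.58 and 8.66 against 6.85, 6.02, 6.96 and 6.38 RPKM. The remaining higher genes were Snora16a, Mir6945, Mid2, Tdrd7 and Pcdhga10, with log2 fold changes of 0.99, 0.77, 0.40, 0.38 and 0.72. Snora16a and Mir6945 are small RNA genes whose entries in mRNA libraries can hold reads of the transcripts they lie in, and Pcdhga10 shares its 3′ exons with the other genes of its protocadherin cluster.

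Among 481 such lower genes besides Mir132 and Mir212, Ccdc61, a protein of centrioles and basal bodies, had the smallest p (6.36e-05 unadjusted, adjusted p 0.274 by limma). Its RPKM was 3.23, 3.65, 3.28 and 3.46 in P28-KO and 5.28, 5.29, 5.36 and 4.63 in P28-wt, with no overlap and a log2 fold change of -0.58 ± 0.09. Ptn, which encodes the secreted heparin-binding factor pleiotrophin, a ligand of chondroitin sulfate proteoglycans, was narrow within both groups at 116, 117, 116 and 124 RPKM in P28-KO and 153, 148, 149 and 140.0 RPKM in P28-wt. Its log2 fold change was -0.32 ± 0.07. Repin1, a zinc finger protein, was at 12.2, 13.7, 11.1 and 10.9 RPKM in P28-KO and 16.3, 15.8, 16.6 and 15.4 RPKM in P28-wt. Cecr5 was nearly constant in the null libraries at 12.5, 12.6, 12.5 and 12.6 RPKM, below the 16.9, 16.7, 18.6 and 15.1 RPKM of the wild-type libraries. The other lower genes were Mir3101, Mir7052, Tmem215, Fam109a, 2310011J03Rik and Stk19, with log2 fold changes of -0.79, -0.40, -0.56, -0.52, -0.31 and -0.56. After removal of the GC and length trend 2310011J03Rik had a log2 fold change of -0.11 (unadjusted p 0.22), and all the other 19 genes kept an unadjusted p under 0.05. The library kit did not mark strand, so reads of genes that overlap on opposite strands cannot be told apart.

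**Figure D3:**
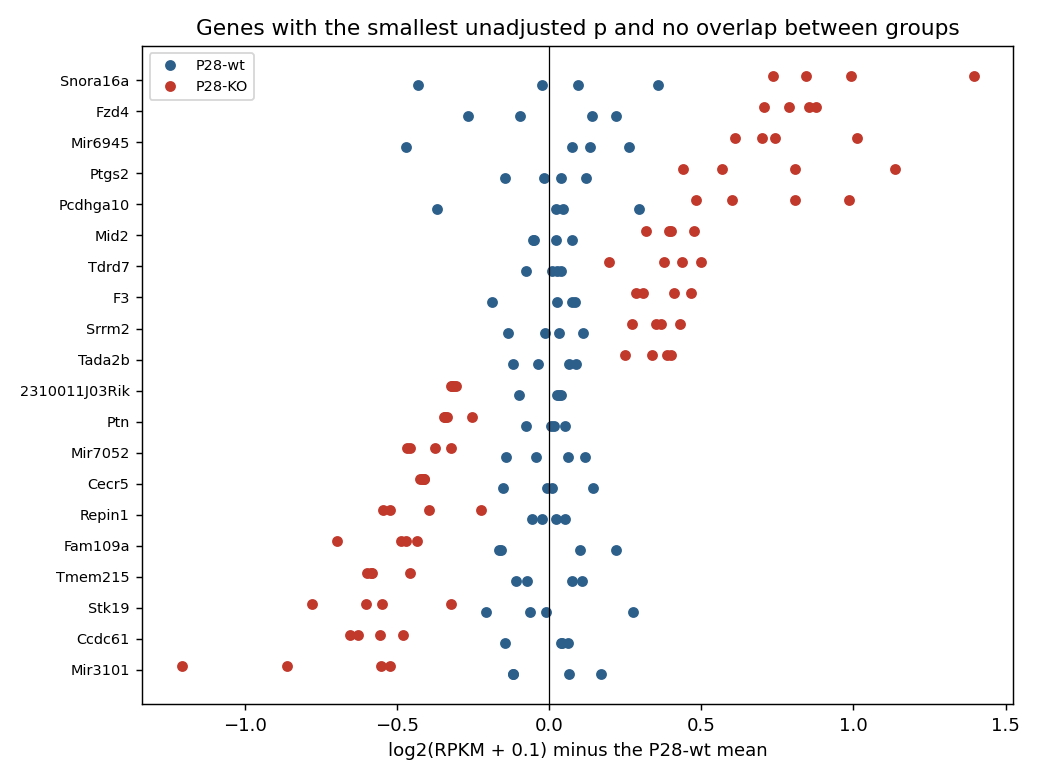
The 20 genes, apart from Mir132 and Mir212, with the smallest unadjusted p and no overlap between the groups, 10 higher and 10 lower in P28-KO. The x axis is log2(RPKM + 0.1) minus the P28-wt mean of the gene, and each point is 1 library (P28-KO red, P28-wt blue). Fzd4 shows a log2 fold change of 0.81 and Ccdc61 of -0.58.

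Apart from Mir132 and Mir212, the largest fold changes among the genes without overlap were in entries of low RPKM. Lnpep, an insulin-responsive aminopeptidase of vesicle membranes, was at 4.34, 4.35, 5.52 and 6.10 RPKM in P28-KO and 3.74, 0.837, 1.75 and 4.24 RPKM in P28-wt (log2 fold change 1.14 ± 0.40), and its 2 lowest wild-type values came from replicates 2 and 3. Ksr2, a scaffold of the Ras and MAP kinase pathway, was at 2.27, 2.48, 2.51 and 2.66 RPKM against 1.90, 0.421, 1.20 and 2.22 RPKM, again with replicates 2 and 3 lowest in P28-wt. The entries of 2 other microRNA genes, Mirlet7f-1 and Mirlet7i, had log2 fold changes of 1.55 and 1.08. As with Snora16a and Mir6945, these entries and those of Mir3101, Mir7052 and Mir7030 can hold reads of the transcripts they lie in. They do not measure the mature microRNAs. On the lower side Mir7030 had -1.53, Slc10a3-ubl4 -1.09, Gm11627 -0.95 and Slc25a47, a carrier of the mitochondrial inner membrane, -0.78.

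Genes that earlier work named as targets of miR-132 or miR-212 were higher in P28-KO more often than lower. Of 31 listed genes, 30 were tested, and 12 were higher and none lower at an unadjusted p under 0.05, beside 4.16% and 8.13% of all genes. No target passed the adjusted threshold. The median log2 fold change of the 30 was 0.22, against -0.03 over all genes, and 23 were above 0. After removal of the GC and length trend 10 were higher, none was lower and the median was 0.12. The count of higher genes was 5 without P28-KO replicate 3 and 6 without P28-wt replicate 3. Of the 30 genes, 20 held a match to the shared 3p seed in their longest annotated 3′ UTR, and 9 of these 20 and 3 of the other 10 were higher at an unadjusted p under 0.05.

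In 4 of the 30 targets the groups did not overlap, beside 1.86% of all genes on the higher side, and 3 of them are described. Sox5, a transcription factor of deep-layer projection neurons, was at 5.14, 4.62, 5.25 and 5.54 RPKM in P28-KO and 4.19, 3.89, 3.83 and 4.32 RPKM in P28-wt (log2 fold change 0.33 ± 0.09, unadjusted p 0.00428, adjusted p 0.379, limma). The Ras GTPase-activating protein gene Rasa1 was at 10.0, 9.01, 9.51 and 10.3 RPKM against 7.71, 7.95, 7.32 and 8.68 RPKM (log2 fold change 0.29 ± 0.08). Sox11, a transcription factor of immature neurons, was low at this age, with 2.46, 2.17, 2.26 and 2.30 RPKM in P28-KO and 1.64, 2.02, 2.03 and 1.89 RPKM in P28-wt (log2 fold change 0.27 ± 0.12, and 0.15 at an unadjusted p of 0.273 once the GC and length trend was removed). In the P10-wt libraries the mean RPKM was 9.46 for Sox5, 14.1 for Rasa1 and 10.99 for Sox11.

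In 8 further targets at an unadjusted p under 0.05 the groups overlapped. Rb1, the retinoblastoma cell cycle regulator, was at 6.53, 6.59, 8.14 and 8.09 RPKM against 6.31, 4.79, 4.74 and 6.69 RPKM. Ep300, a histone acetyltransferase and coactivator of CREB, was at 9.24 ± 0.596 RPKM (SD, n = 4) in P28-KO and 7.84 ± 1.08 in P28-wt. Btg2 and Nr4a2, which are also immediate early genes, had log2 fold changes of 0.69 and 0.45, and the kinase gene Gsk3b and the insulin-regulated transcription factor gene Foxo1 had 0.24 and 0.25.

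For other known targets the difference was smaller or less certain. Mapt, the gene of the microtubule protein tau, was at 81.5, 82.0, 83.6 and 85.1 RPKM in P28-KO and 85.4, 77.2, 84.4 and 87.9 RPKM in P28-wt, and its log2 fold change of -0.01 ± 0.07 was within its error. Sirt1, a deacetylase, had a log2 fold change of -0.01 ± 0.14, Paip2, a repressor of translation, 0.02 ± 0.14, and Ache, the enzyme that breaks down acetylcholine, -0.06 ± 0.12. Arhgap32, a GTPase-activating protein and a well-known neuronal target, was at 51.5, 46.7, 51.9 and 50.5 RPKM in P28-KO against 47.4, 38.7, 40.1 and 50.6 RPKM in P28-wt. Its groups overlapped and the unadjusted p was 0.0736. Foxo3 was at 10.1, 10.5, 11.2 and 10.9 RPKM in P28-KO and 11.004, 3.14, 6.72 and 10.9 RPKM in P28-wt, so its log2 fold change of 0.58 rested on P28-wt replicates 2 and 3, the former being the library that stood apart.

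The matches in these 3′ UTRs are shown for targets with and without a difference, in capitals the 7 bases that pair with the seed and around them the bases of the mRNA (RefSeq, GRCm38.p6, sense strand, 5′ to 3′).
Sox5 site, chr6:143833152-143833178, minus strand: ctcatacactGACTGTTattttaactg
Rasa1 site, chr13:85215618-85215644, minus strand: atgaccatttGACTGTTcactgacttt
Sox11 site, chr12:27335930-27335956, minus strand: tgtttgaatgGACTGTTttgaaacgga
Rb1 site, chr14:73196288-73196314, minus strand: tttacaagcaGACTGTTaactatagaa
Arhgap32 site, chr9:32261182-32261208, plus strand: ctggacagtgGACTGTTctattttttt
Sirt1 site, chr10:63319170-63319196, minus strand: ttacagtgaaGACTGTTttcagctctt
The 7 bases are the same in the Sox5 and the Sirt1 site, although the first gene differed by 0.33 and the second by -0.01 on the log2 scale. The sites are not alike beyond these bases, as the Sox5 site is followed by an A and the Sirt1 site by a T. Sox5 also held a match at chr6:143831647-143831673 that is not shown. A match describes the sequence only and is not evidence of binding.

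**Figure D4:**
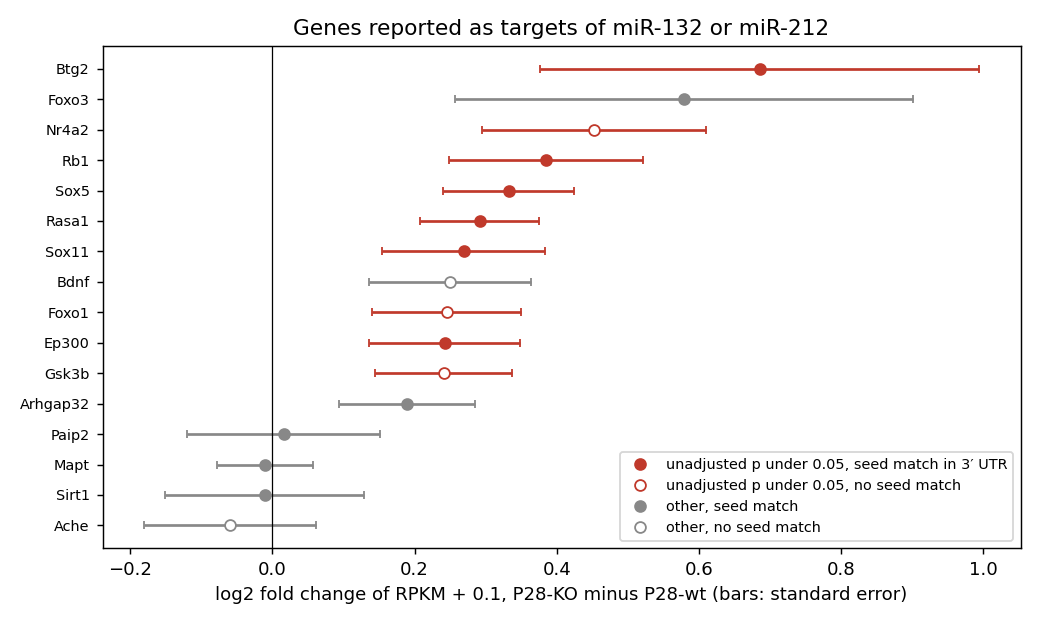
Log2 fold change (x axis, P28-KO minus P28-wt, bars are standard errors) of 16 of the 30 tested genes that were reported as targets of miR-132 or miR-212. The 16 are those named in the text, so the share in red is not that of the list, where 12 of 30 were at an unadjusted p under 0.05. Red marks an unadjusted p under 0.05, filled symbols a match to the shared seed in the 3′ UTR. The 9 red genes all lie to the right of 0, with Btg2 at 0.69 and Gsk3b at 0.24.

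Across the transcriptome, genes with a match to the shared 3p seed had a higher median than genes without one, and the medians were 0.01 and 0.00 once the GC and length trend was removed. Of 12992 tested genes with an annotated 3′ UTR, 1602 held at least 1 match. Their median log2 fold change was 0.04, against -0.04 for the 11390 genes without a match. At an unadjusted p under 0.05, 130 (8.11%) of the genes with a match were higher and 63 (3.93%) lower. Of those without, 384 (3.37%) were higher and 1002 (8.80%) lower. By library, the difference of medians was 0.04, -0.04, 0.08 and 0.09 in P28-KO and -0.03, -0.09, -0.09 and 0.02 in P28-wt relative to the mean of each gene, so the groups overlapped. Genes with a match were longer and poorer in GC, with a median transcript length of 4560.5 against 2971 bases and a median GC content of 47.8% against 51.1%. After removal of the trend, 111 of the 1602 genes with a match were higher and 91 lower. Of the 11390 genes without a match, 587 were then higher and 611 lower. Among genes with a 3′ UTR over 2000 bases, the median was 0.08 for 941 genes with a match and 0.05 for 2695 without, with 102 higher and 18 lower against 173 higher and 70 lower. Without the trend these medians were 0.01 and 0.00, with 60 higher and 60 lower against 127 higher and 184 lower. In the bins of shorter 3′ UTRs, with upper limits of 500, 1000 and 2000 bases, the medians as deposited were -0.09, -0.05 and 0.00 with a match and -0.11, -0.07 and -0.03 without.

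A match followed by an A, which lies opposite base 1 and marks stronger sites, gave similar shares. Of 337 genes with such a match 34 (10.1%) were higher and 16 (4.75%) lower, beside 3.79% and 8.29% of genes without it. Their median was 0.05, but without the GC and length trend 34 were higher and 22 lower with a median of 0.01. Of the 12655 genes lacking such a match, 664 were higher and 680 lower without the trend, with a median of 0.00. With 2 or more matches in the 3′ UTR, 19 of 190 genes (10.0%) were higher and 6 (3.16%) lower with a median of 0.06. Without the trend 15 were higher and 12 lower with a median of -0.01. The 1583 genes with a match to miR-212-5p (GCCAAGG on the mRNA) had a median of -0.01 with 71 higher (4.49%) and 119 lower (7.52%). Genes without that match had 3.88% higher and 8.29% lower. The 417 genes with a match to miR-132-5p (CCACGGT) had a median of 0.01 with 23 higher (5.52%) and 35 lower (8.39%). Genes without it had 3.90% higher and 8.19% lower, so for both 5p strands the shares were close to those without a match.

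The study's own list of 39 predicted miR-132-3p targets that were lower with age and higher in the mutant was chosen on these libraries, so it is not independent evidence of direction. In the present fit all 39 were above 0, 32 at an unadjusted p under 0.05 and none at an adjusted p under 0.05, with a median of 0.29. Removal of the GC and length trend left 22 higher. Mef2a, a transcription factor that limits excitatory synapse number, was on that list, at 27.5, 26.0, 28.4 and 31.4 RPKM in P28-KO and 22.7, 21.6, 21.0 and 25.2 RPKM in P28-wt without overlap. Plcxd2, which holds a phospholipase C-type domain, was at 22.9, 19.1, 23.6 and 23.5 RPKM in P28-KO and 18.6, 11.4, 14.2 and 16.9 RPKM in P28-wt, and P28-wt replicate 2 was lowest.

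Genes of the Ras and MAP kinase pathway, which carries growth factor signals to the nucleus, were found in both directions. Of 33 tested, 10 were higher and 3 lower at an unadjusted p under 0.05, beside 4.16% and 8.13% of all genes, and the median was 0.14. The higher genes were 7 and the median 0.08 after removal of the GC and length trend, and the higher count was 6 by the regularized test on RPKM. The upper end of the pathway included Sos2, an activator of Ras, at 5.38 ± 0.286 RPKM in P28-KO and 4.58 ± 0.383 in P28-wt (SD, n = 4), and the inhibitor Rasa1 described above. The GTPase gene Hras itself was lower, at 43.2, 46.9, 41.3 and 40.3 RPKM in P28-KO and 53.3, 66.6, 57.5 and 46.2 RPKM in P28-wt (log2 fold change -0.37 ± 0.11, adjusted p 0.379, limma), where only P28-KO replicate 2 and P28-wt replicate 4 overlapped. Braf, a kinase activated by Ras, had a log2 fold change of 0.24, and of 0.07 (unadjusted p 0.285) without the trend. The phosphatases that the pathway induces and that dampen it, Dusp4 and Dusp6, had 0.53 and 0.46. The number of higher genes was 1 without P28-KO replicate 3, 3 without P28-wt replicate 3, 4 without P28-KO replicate 1 or P28-wt replicate 1 and 6 without P28-KO replicate 4 or P28-wt replicate 2, and that of lower genes 1 without P28-KO replicate 1 or 3 or P28-wt replicate 3. Of 27 genes of the neighbouring PI3K, Akt and mTOR pathway 4 were higher (14.8%) and 1 lower (3.70%), with a median of 0.09, or 0.05 without the trend. They included the targets Foxo1 and Gsk3b described above, the insulin receptor substrate gene Irs2 (9.72, 9.95, 9.41 and 5.63 RPKM in P28-KO, 6.88, 2.53, 6.30 and 5.94 RPKM in P28-wt) and, on the lower side, the kinase gene Akt2 (20.3, 19.2, 21.5 and 19.8 RPKM in P28-KO, 25.6, 20.1, 23.8 and 23.5 RPKM in P28-wt). The higher count was 10 after median-ratio scaling or with Ddx3y as a covariate and 9 with all 12 libraries in 1 fit. It was 1 without P28-KO replicate 3 or P28-wt replicate 3, 2 without P28-KO replicate 1 or 4 or P28-wt replicate 2 and 11 without P28-wt replicate 4.

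Regulators of neuronal transcription and chromatin gave 7 higher and no lower genes of 38, beside 4.16% and 8.13% of all genes, with a median of 0.11. After removal of the GC and length trend 5 were higher and 1 lower, with a median of 0.04. Besides Sox5, Sox11, Mef2a and Ep300, these included Kdm6a, a histone demethylase gene on the X chromosome, at 5.88, 6.45, 6.13 and 5.69 RPKM in P28-KO and 4.78, 5.57, 3.58 and 5.37 RPKM in P28-wt, and Tcf4, a basic helix-loop-helix factor, at 34.5, 32.1, 37.4 and 38.7 RPKM against 31.3, 29.8, 27.3 and 35.2 RPKM. The groups did not overlap for Kdm6a and overlapped for Tcf4. Without the trend Kdm6a had a log2 fold change of 0.22 at an unadjusted p of 0.102. Kdm6a escapes X inactivation, and Xist exceeded 1 RPKM in 3 of the 4 P28-KO and 2 of the 4 P28-wt libraries, whose part in the Kdm6a values was not tested. The count of higher genes was 3 without P28-KO replicate 3 and 4 without P28-KO replicate 4 or P28-wt replicate 3.

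Genes of axon growth and guidance that were called as deposited were all on the higher side. Of 39 tested, 8 (20.5%) were higher and none lower at an unadjusted p under 0.05, beside 4.16% and 8.13% of all genes, with a median of 0.19. After removal of the GC and length trend 9 were higher and 2 lower, with a median of 0.09. The summed RPKM of the list was not higher, with a mean of 956 (924 to 991) in P28-KO and 998 (954 to 1046) in P28-wt. As the mean log2 deviation from the 8-library mean, P28-KO replicate 1 was at 0.02 and P28-wt replicate 4 at 0.08, so the groups overlapped. Epha3, an ephrin receptor, was at 1.42, 1.97, 1.8005 and 2.01 RPKM in P28-KO and 1.09, 0.915, 0.897 and 1.61 RPKM in P28-wt, where the null library with the lowest value fell below the highest wild-type library. Dpysl3, a collapsin response mediator that acts in growth cones, was at 9.55, 10.7, 9.97 and 10.3 RPKM in P28-KO and 7.58, 7.28, 7.91 and 9.50 RPKM in P28-wt with a log2 fold change of 0.33 ± 0.10, and at a mean of 306 RPKM in the P10-wt libraries. The lowest null library of Dpysl3 was just above its highest wild-type library. The semaphorin receptor gene Nrp1 was at 5.15, 4.93, 5.57 and 5.80 RPKM in P28-KO against 4.42, 4.77, 3.88 and 4.47 RPKM, and the chemokine gene Cxcl12 at 9.21, 9.21, 9.36 and 9.92 RPKM against 7.98, 5.78, 6.89 and 8.79 RPKM. The number of higher genes was 5 without P28-KO replicate 4 or P28-wt replicate 3 and 13 without P28-wt replicate 4.

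Myelin genes were lower in P28-KO. Of 20 tested genes of oligodendrocytes and their myelin, 11 (55.0%) were lower and none higher at an unadjusted p under 0.05, beside 8.13% and 4.16% of all genes, and 19 had a log2 fold change below 0, with a median of -0.27. Their summed RPKM was 1651 to 2073 in the P28-KO libraries and 2143 to 2953 in the P28-wt libraries, without overlap. The sum gives most weight to abundant genes such as Mbp. With equal weight for each gene, as the mean log2 deviation from the 8-library mean, the groups overlapped. P28-KO replicate 2 was then at 0.01 and P28-wt replicate 4 at -0.01. Taken singly, 3 of the 20 genes were lower without overlap between the groups, beside 3.66% of all genes. Fewer oligodendrocytes in the tissue and less RNA per oligodendrocyte cannot be told apart in bulk RNA. Mbp, the gene of myelin basic protein, was at 598, 859.9, 742 and 657 RPKM in P28-KO and 956, 1279, 983 and 865 RPKM in P28-wt. The highest null library was just below the lowest wild-type library, with a log2 fold change of -0.51 ± 0.14 and an adjusted p of 0.379 (limma). Nkx6-2, a transcription factor of mature oligodendrocytes, was at 4.65, 6.02, 4.78 and 3.96 RPKM in P28-KO and 7.99, 7.12, 7.43 and 6.16 RPKM in P28-wt (log2 fold change -0.56 ± 0.13). Cnp, an enzyme of non-compact myelin, was at 116, 141, 122 and 116 RPKM against 153, 163, 156 and 137 RPKM, and Mobp, a structural protein of compact myelin, at 57.6, 67.2, 64.1 and 59.7 RPKM against 74.8, 92.9, 80.7 and 66.9 RPKM. For both, P28-KO replicate 2 lay above P28-wt replicate 4 and the other libraries did not cross. In P10-wt cortex the means were 39.6 RPKM for Mbp and 1.16 RPKM for Mobp. Markers of oligodendrocyte precursors did not move together, with 2 of 10 lower and 1 higher, and the precursor receptor gene Pdgfra had a log2 fold change of 0.31. After removal of the GC and length trend 10 myelin genes were lower. The count was 7 without P28-KO replicate 1, 6 after quantile normalization and 2 when all 12 mRNA libraries shared 1 estimate of the spread.

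Immediate early genes, which neurons transcribe within minutes of activity, varied widely between libraries of 1 genotype. Of 26 tested, 5 (19.2%) were higher and none lower in P28-KO at an unadjusted p under 0.05, beside 4.16% and 8.13% of all genes, and 24 had a log2 fold change above 0, with a median of 0.37. Their summed RPKM was 2021, 1499, 1715 and 840 in the P28-KO libraries and 950, 1432, 1642 and 820 in the P28-wt libraries. The sums thus fell into a high and a low set that each held libraries of both genotypes, with P28-KO replicate 4 and P28-wt replicates 1 and 4 in the low set. Without P28-KO replicate 4, 17 of the 26 were higher, and the regularized test on RPKM gave 11 with all libraries. Nr4a3, an orphan nuclear receptor, was at 7.50, 5.50, 6.97 and 4.38 RPKM in P28-KO and 2.62, 1.83, 5.08 and 3.16 RPKM in P28-wt, with overlap (log2 fold change 0.98 ± 0.27). Npas4, a neuron-specific transcription factor that depends on calcium entry, was at 62.5, 48.8, 67.3 and 40.9 RPKM in P28-KO and 30.8, 36.8, 50.6 and 31.3 RPKM in P28-wt. Bdnf, the activity-regulated neurotrophin, was at 6.13, 4.72, 5.27 and 4.82 RPKM in P28-KO and 4.78, 4.52, 4.48 and 3.75 RPKM in P28-wt (unadjusted p 0.0505, adjusted p 0.406, limma). Ptgs2, described above, was the only one of these genes without overlap, and its lowest null value also came from P28-KO replicate 4.

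**Figure D5:**
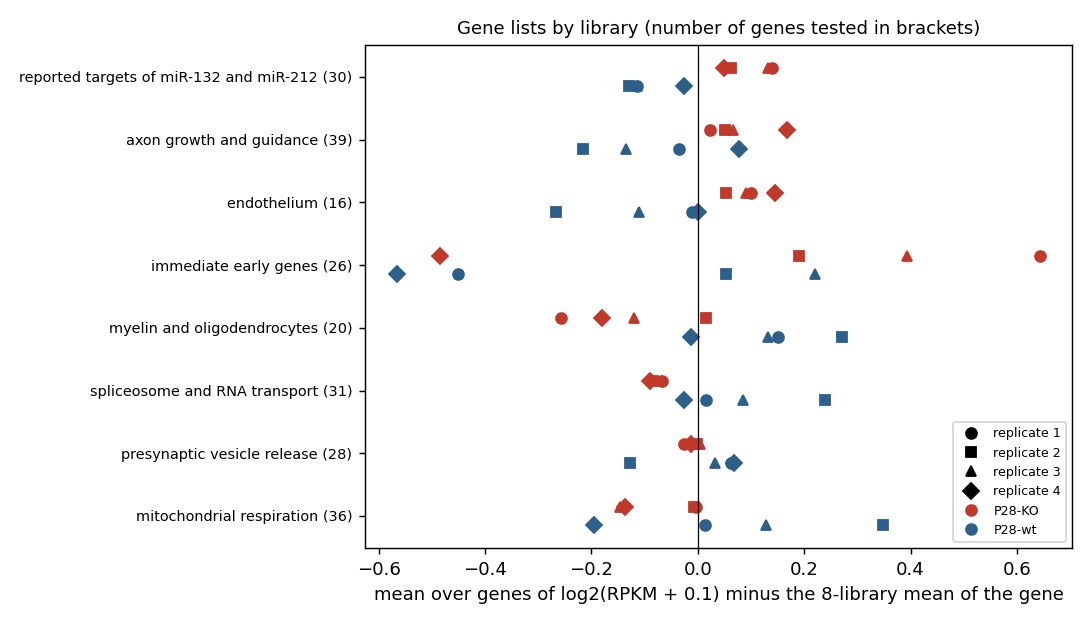
Mean over the genes of 8 lists of log2(RPKM + 0.1) minus the 8-library mean of each gene (x axis), by library. Colours mark the genotype and symbols the replicate. The means of the reported targets are above 0 in all 4 P28-KO libraries and below 0 in all 4 P28-wt libraries, and those of the immediate early genes run from -0.57 to 0.64 with both genotypes on either side of 0.

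Genes of blood vessels and glia differed by small amounts. Of 16 endothelial markers, 4 (25.0%) were higher and none lower at an unadjusted p under 0.05, beside 4.16% and 8.13% of all genes. In this group 15 had a log2 fold change above 0, and the median was 0.17. Their summed RPKM was not higher, with a mean of 339 (321 to 363) in P28-KO and 347 (334 to 354) in P28-wt. Without the GC and length trend 6 were higher and the median was 0.27. Abcb1a, the efflux pump of the blood-brain barrier, was at 4.66, 4.48, 4.76 and 5.02 RPKM in P28-KO and 4.07, 3.13, 3.38 and 3.82 RPKM in P28-wt with no overlap (log2 fold change 0.39 ± 0.10). Flt1, a receptor for vascular endothelial growth factor, was at 4.27, 5.07, 5.22 and 6.02 RPKM against 4.74, 2.59, 3.43 and 4.58 RPKM, with P28-wt replicates 2 and 3 lowest. The number of higher endothelial genes was 1 without P28-KO replicate 4 or P28-wt replicate 3, 2 without P28-KO replicate 3 and 8 without P28-wt replicate 4. Among astrocyte markers 4 of 16 were higher and none lower, with the glutamate transporter gene Slc1a3 at 122 ± 1.64 RPKM in P28-KO and 106 ± 11.8 in P28-wt (SD, n = 4). The astrocyte count was 5 without the trend and 0 without P28-KO replicate 3 or P28-wt replicate 3, 1 without P28-KO replicate 4 or P28-wt replicate 2 and 2 without P28-KO replicate 1. Of 16 microglial markers 1 was higher and none lower with a median of 0.02, and without the trend 4 were higher with a median of 0.13.

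Genes of RNA processing and of ribosomes and mitochondria had medians below 0 as deposited. Of 31 genes of the spliceosome and RNA transport 11 were lower (35.5%, beside 8.13% of all genes) and none higher at an unadjusted p under 0.05, with a median of -0.14, and 8 were lower and 2 higher after removal of the GC and length trend. Hnrnpa1, a regulator of exon choice, was at 9.84, 6.66, 10.3 and 13.0 RPKM in P28-KO and 14.9, 19.2, 13.6 and 12.5 RPKM in P28-wt (log2 fold change -0.61 ± 0.19, and -0.59 without the trend), and its counterparts among processed pseudogenes make it uncertain which reads were kept as unique. Ppil1, a peptidyl-prolyl isomerase of the spliceosome, was at 10.9, 8.23, 9.36 and 10.1 RPKM in P28-KO and 11.9, 16.8, 13.1 and 13.0 RPKM in P28-wt without overlap. The count of lower genes was 7 without P28-KO replicate 1 or 4. Of 22 mitochondrial ribosomal protein genes 6 (27.3%) were lower, of 36 genes of mitochondrial respiration 3 (8.33%), and of 30 cytosolic ribosomal protein genes 1 (3.33%), with medians of -0.15, -0.15 and -0.17. The share in respiration was thus close to the 8.13% of all genes and that in the cytosolic ribosome below it. Without the trend these medians were -0.03, -0.02 and 0.00, and 2, 0 and 0 genes of these groups were lower. Single libraries moved these counts to 2 without P28-KO replicate 4, 3 without P28-KO replicate 3 or P28-wt replicate 2 and 10 without P28-wt replicate 4 for the mitochondrial ribosome, to 0 without P28-KO replicate 1, 3 or 4 or P28-wt replicate 2 or 3, 1 without P28-wt replicate 1, 9 without P28-KO replicate 2 and 17 without P28-wt replicate 4 for respiration, and to 0 without P28-KO replicate 3 or 4 or P28-wt replicate 2 or 3, 2 without P28-KO replicate 1 or P28-wt replicate 1, 5 without P28-wt replicate 4 and 6 without P28-KO replicate 2 for the cytosolic ribosome.

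Presynaptic genes were found in both directions. Of 28 tested, 10 (35.7%) were lower and 2 (7.14%) higher at an unadjusted p under 0.05, beside 8.13% and 4.16% of all genes, with a median of -0.09 that was 0.01 after quantile normalization. The SNARE gene Stx1a, which encodes syntaxin 1A and drives vesicle fusion, was at 209, 237, 205 and 201 RPKM in P28-KO and 254, 272, 293 and 264 RPKM in P28-wt (log2 fold change -0.35 ± 0.08, and -0.18 without the GC and length trend). Cplx1, which encodes the fusion clamp complexin 1, was at 236, 265, 237 and 219.9 RPKM in P28-KO and 305, 282, 298 and 268 RPKM in P28-wt. Both had no overlap between the groups. The vesicle proteins Syp, Rab3a and Vamp2 had log2 fold changes of -0.27, -0.27 and -0.18, whereas Sv2b and Sv2c had 0.19 and 0.86. The number of lower genes was 4 after removal of the trend, 2 after quantile normalization (with 4 higher), 6 with all 12 libraries in 1 fit, and 4 without P28-KO replicate 3, 5 without P28-KO replicate 4 or P28-wt replicate 3 and 6 without P28-KO replicate 1.

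Of 22 glutamate receptor genes 4 (18.2%) were higher and none lower at an unadjusted p under 0.05, beside 4.16% and 8.13% of all genes, and 2 were higher without the GC and length trend. Gria1, a subunit of AMPA receptors, was at 46.0, 48.7, 46.3 and 48.4 RPKM in P28-KO and 41.8, 39.2, 41.7 and 45.6 RPKM in P28-wt (log2 fold change 0.17 ± 0.07). Grin2b, the NMDA receptor subunit that dominates early in development, was at 1.97, 2.23, 4.10 and 4.42 RPKM in P28-KO and 2.24, 0.560, 0.985 and 2.77 RPKM in P28-wt, with P28-wt replicate 2 lowest. The count was 0 without P28-KO replicate 3 or 4 or P28-wt replicate 2 or 3 and 2 without P28-wt replicate 1. Of 16 genes of GABA receptors and chloride transporters 3 (18.8%) were higher and 1 (6.25%) lower, with a median of 0.13. Without the trend 1 was higher, none was lower and the median was 0.02. The lower gene as deposited was Gabrd, the delta subunit of extrasynaptic receptors, at 34.3, 28.7, 29.8 and 27.2 RPKM in P28-KO and 39.8, 36.8, 40.4 and 31.2 RPKM in P28-wt, while the gamma subunit gene Gabrg1 was at 4.08, 3.45, 3.54 and 3.71 RPKM against 3.07, 2.86, 2.37 and 3.28 RPKM. Without the trend the unadjusted p was 0.164 for Gabrd and 0.0566 for Gabrg1. The higher count of this group was 1 without P28-KO replicate 3 or 4 and 6 without P28-KO replicate 2. Of 13 tested interneuron markers outside the parvalbumin class, 1 (7.69%) was higher and 3 (23.1%) lower, with a median of -0.15. These shares stand beside 4.16% and 8.13% of all genes. Without the trend the counts were the same and the median was -0.01. The higher gene was Reln, the extracellular matrix signal made by cortical interneurons, at 6.16, 6.46, 6.73 and 7.35 RPKM in P28-KO and 5.75, 3.95, 4.72 and 6.05 RPKM in P28-wt. Sst, the neuropeptide gene of another interneuron class, was 1 of the 3 lower genes, at 249, 249, 209 and 197 RPKM against 284, 353, 301 and 236 RPKM. The groups overlapped for Sst and not for Reln.

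No difference was detected next to the deletion. Of 34 tested genes within 1 megabase of the locus, none had an unadjusted p under 0.05. The nearest were Ovca2, 2.20 kb away, at 14.2 ± 4.73 RPKM in P28-KO and 15.1 ± 7.05 in P28-wt (SD, n = 4), and Hic1, 3.13 kb away on the other side, at 0.722 ± 0.224 against 0.784 ± 0.113. The smallest p was that of Srr, the gene of serine racemase, at 0.073 (adjusted p 0.426, limma), and the log2 fold changes stayed within 0.22 in either direction. Quantile normalization gave 4 higher genes among the 25 neighbours listed for this test. On chromosome 11 as a whole 14.3% of genes had an unadjusted p under 0.05, and the other autosomes and the X chromosome lay between 7.63% (chromosome 18) and 15.4% (chromosome 17).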

How the data were processed

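RNA from visual cortex was made into mRNA libraries with a poly(A)-selecting kit that does not mark strand. The authors aligned the reads to mm10 and RefSeq exons, kept uniquely aligned reads, and deposited RPKM values per gene and library, without counts (the submitters' processing notes list CASAVA 1.8.2, Bowtie 0.12.8 and SAMtools 0.1.19). The log2(RPKM + 0.1) values of the 8 P28 libraries were fitted by genotype with limma 3.58.1 (R 4.3.3, trend on mean level) over genes with a mean RPKM of 0.5 and above, with Benjamini-Hochberg adjustment over all of them. A pseudocount shrinks the fold change of genes with low values.

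The alternatives were pseudocounts of 0.01 and 1, no filter or a minimum of 2 RPKM, median-ratio scaling, quantile normalization, all 12 mRNA libraries in 1 fit, Ddx3y as a covariate, removal of a GC and length trend (loess, span 0.3), a regularized t-test on RPKM, each library left out and, added after seeing the data, a replicate block. Depth is only implied, from the steps between low RPKM values (42.9% to 47.3% of low values were whole multiples within 0.03, and 6.0% would be by chance), so no count test was run. GC content, length and 3′ UTRs came from RefSeq on GRCm38.p6, with 23612 of 23881 genes matched, 1125 of them by an older symbol. Genes were named by the smallest p (10 per direction) or the largest fold change (5 per direction) among those without overlap and of at least 1 RPKM, and by the smallest p within each list. Sos2, Dusp4, Dusp6, Akt2, Tcf4, Syp, Rab3a, Vamp2, Sv2b, Sv2c, Nrgn and Mir378b were named after their values were seen, and Ovca2 and Hic1 by their position. The genes, lists and comparisons were chosen with earlier results of these data known. The fitting code was tested on simulated data. Some genes and 1 site are not reported here. The small RNA libraries were not analysed here.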

Additional observations from a re-analysis of the deposited data

Results flagged for a closer look

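In 12 of 264 groups of 4 libraries that were tested (4.55%), 1 library lay far from the other 3 by the critical value of Dixon for 4 values. Chance alone gives about 1 in 20 groups. In P28-KO these values were Ptn at 124 RPKM in replicate 4, Tmem215 at 1.57 RPKM in replicate 4, Gm11627 at 1.49 RPKM in replicate 1, Sirt1 at 5.68 RPKM in replicate 1, Plcxd2 at 19.1 RPKM in replicate 2 and Irs2 at 5.63 RPKM in replicate 4. In P28-wt they were Ccdc61 at 4.63 RPKM, 2310011J03Rik at 17.1 RPKM and Braf at 12.6 RPKM, all in replicate 4, and Slc25a47 at 1.996 RPKM in replicate 2. The low Irs2 value came from P28-KO replicate 4, which was also low in immediate early genes. The summed RPKM of 21 genes of the microRNA machinery was 376 in P28-KO replicate 2, and that of 12 markers of layer 5 neurons was 142 in the same library, each far from the other P28-KO libraries.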

How the results depend on the processing

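The lower values of Mir132 and Mir212 kept their direction and an adjusted p under 0.05 under all 18 alternatives and with a replicate block. The medians of several lists changed sign in some settings. Among them, that of presynaptic genes did so under quantile normalization (0.01) and that of cytosolic ribosomal protein genes without the trend (0.00). The median of microglial markers was -0.06 without P28-KO replicate 1 and -0.05 without P28-KO replicate 2 or P28-wt replicate 4. When each library was left out, the log2 fold change ran from -7.01 to -6.83 for Mir132 and from -7.67 to -7.39 for Mir212, and 0 higher and 2 lower genes passed the adjusted threshold. Quantile normalization and the regularized t-test each called 1 higher gene (Mir378b, with at most 5.3 implied reads a library), and the regularized t-test called Nrgn as a lower gene besides the 2 deleted ones. At an unadjusted p under 0.05, leaving out libraries gave 298 to 956 higher and 556 to 1987 lower genes, and removal of the GC and length trend gave 739 lower genes. Among reported targets, the count of higher genes was 5 to 15 and the median 0.17 to 0.26 without single libraries, and the median was 0.12 without the trend. The median of genes with a seed match minus that of genes without was 0.083 as deposited, 0.06 to 0.11 without single libraries and 0.0040 without the trend. The causes of these changes were not tested, and depth is known only from the steps in RPKM. A block on the replicate numbers of the column headers, added after seeing the data, gave 693 higher and 1143 lower genes at an unadjusted p under 0.05 and 0 and 2 at an adjusted p under 0.05. Same-numbered libraries deviated from their group means with correlations of -0.08, 0.08, -0.09 and 0.28, so the numbers were not taken to pair libraries.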
